A study of Mus musculus with 4 samples.

Results

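The nonclassical major histocompatibility complex (MHC) class I genes H2-Q4, H2-Q6, H2-Q7, H2-Q10, H2-T22, H2-T23, H2-M3 and the class I-like gene Cd1d1 were followed through the spleen of a pBIC10 mouse and a pBIC mouse, both female and both with a B-cell lymphoma marked by green fluorescent protein. These 8 genes were chosen by name, out of 32285 features in the matrices, and all 8 had UMIs in both mice. UMIs are unique molecular identifiers, each standing for 1 captured transcript. Each mouse gave a 5′ gene expression library and a library of T-cell receptor (TCR) transcripts from sorted live cells remixed to 20% GFP-positive and 80% GFP-negative. The labels give the genotypes as pBIC10 and pBIC only. They do not say how pBIC10 differs, and give no age, strain or MHC haplotype. In B cells Il10, the interleukin-10 gene, stood at 0.665 CPM in pBIC10 and 33.1 CPM in pBIC, where CPM are UMIs of a gene per 1000000 UMIs of the class.

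The pBIC10 gene expression library held 14991 barcodes with a median of 5458 UMIs, and 14300 cells were used. The pBIC library held 18129 barcodes with a median of 6235 UMIs, and 17431 cells were used. The 2 libraries shared 712 barcode sequences. With 1 mouse per genotype there was no test, and genotype, mouse, tumour and haplotype cannot be told apart. All intervals are 95% intervals that cover counting error only.

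Cells were classed by marker transcripts, and a cell entered a class when it met that gate and no other. B cells (at least 3 UMIs of Cd79a and Cd79b) numbered 2014 in pBIC10 and 3285 in pBIC. CD8 T cells had a TCR beta chain and at least 1 UMI of Cd8a or Cd8b1. With at least 3 UMIs of Mki67 and Top2a they were called dividing, 426 cells in pBIC10 and 1305 in pBIC, and the non-dividing cells numbered 2113 in pBIC10 and 4461 in pBIC. NK cells (Ncr1) numbered 14 in pBIC10 and 121 in pBIC, macrophages (Csf1r with at least 5 UMIs of Lyz2) 1814 and 375, dendritic cells (Flt3 or Zbtb46) 326 and 431, and neutrophils (Csf3r) 968 and 254, with pBIC10 given before pBIC each time. A further 1633 pBIC10 and 1209 pBIC cells met more than 1 gate and were left out. In both mice each gate had a higher summed level of its own independent markers than any other gate had, except that NK cells of pBIC exceeded dendritic cells for the dendritic list. The dendritic gate carried Cd3e, a T-cell receptor subunit, at 191 CPM in pBIC10 and 187 CPM in pBIC, and its marker Cd209a was at 0 in pBIC10. Its erythroid markers summed to 900 CPM in pBIC10 and 2371 CPM in pBIC, above its own dendritic list at 231 CPM in pBIC10 and 204 CPM in pBIC, and the part of this RNA in the dendritic results was not tested.

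Class I molecules present ligands at the cell surface with beta-2 microglobulin. The classical molecules are highly variable and show peptides to CD8 T cells, while the nonclassical ones vary less and serve narrower tasks. H2-T23 encodes Qa-1, which signals to the CD94/NKG2A receptor of NK and CD8 T cells, H2-Q6 and H2-Q7 encode Qa-2 molecules, H2-Q10 a secreted class I molecule best known from liver, H2-T22 a ligand of some gamma-delta T cells, H2-M3 a presenter of formylated bacterial peptides, and Cd1d1 the lipid-presenting molecule seen by natural killer T cells. Inbred strains differ in the Q region, and some lack Qa-2. H2-Q4, H2-Q6, H2-Q7 and H2-Q10 are close copies of each other, so reads could be assigned among them or lost in counting, and their values are uncertain in that respect.

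The 250 bases before the annotated starts of 4 members are shown because these genes parted in B cells and CD8 T cells (below, H2-Q7 and H2-T22 were low in pBIC10 lymphoma cells, H2-T23 was not, and H2-Q10 had a pattern of its own). The sequences are RefSeq's for GRCm38.p6, read 5′ to 3′ on the gene's strand, at chr17:35438905-35439154 (plus) for H2-Q7, chr17:35469839-35470088 (plus) for H2-Q10, chr17:36042743-36042992 (minus) for H2-T22 and chr17:36032702-36032951 (minus) for H2-T23. Capitals mark exact matches on either strand to a kB element (GGGGATTCC), an interferon-response element core (GTTTCACTT), a CRE-like element (TGATGAC) and a CCAAT box (CCAAT, or ATTGG where it lies on the other strand).
H2-Q7: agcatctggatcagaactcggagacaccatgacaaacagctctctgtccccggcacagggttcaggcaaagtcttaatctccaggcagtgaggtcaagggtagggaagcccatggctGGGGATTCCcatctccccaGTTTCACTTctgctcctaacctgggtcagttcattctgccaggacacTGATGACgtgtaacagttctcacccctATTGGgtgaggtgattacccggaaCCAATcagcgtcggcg
H2-Q10: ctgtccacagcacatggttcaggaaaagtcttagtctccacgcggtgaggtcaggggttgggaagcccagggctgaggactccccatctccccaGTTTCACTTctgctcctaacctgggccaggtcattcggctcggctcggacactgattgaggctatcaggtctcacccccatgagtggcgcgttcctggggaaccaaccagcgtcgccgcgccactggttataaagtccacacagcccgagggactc
H2-T22: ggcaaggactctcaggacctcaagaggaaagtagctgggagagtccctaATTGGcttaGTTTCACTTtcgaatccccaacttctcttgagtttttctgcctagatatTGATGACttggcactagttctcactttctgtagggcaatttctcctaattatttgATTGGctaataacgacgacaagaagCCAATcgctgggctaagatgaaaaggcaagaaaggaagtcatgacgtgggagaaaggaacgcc
H2-T23: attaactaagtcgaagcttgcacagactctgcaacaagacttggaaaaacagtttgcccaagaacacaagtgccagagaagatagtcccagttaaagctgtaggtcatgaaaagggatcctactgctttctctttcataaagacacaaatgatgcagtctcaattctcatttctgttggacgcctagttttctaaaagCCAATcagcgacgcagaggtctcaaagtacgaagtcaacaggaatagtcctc

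Promoter windows of 300 bases, which run 50 bases past the start, were matched for 7 of the 8 members, Cd1d1 having none in the table. The kB element was found in 2 of the 7 (H2-Q6 and H2-Q7) and in 0.250% of all 32851 windows. The interferon-response core was found in 6 of the 7, all but H2-T23, and in 0.399% of all windows. TGATGAC stood in 5 of the 7, not in H2-Q10 or H2-T23, and in 3.23% of all windows, and CCAAT in 6 of the 7, not in H2-Q10, and in 37.4% of all. No matches overlapped. A match describes letters only, and the windows come from a reference genome that may differ from these mice.

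Levels are UMIs summed over the cells of a class and given as CPM of that class's UMIs, with exact Poisson intervals. H2-Q7, one of the Qa-2 genes, ran from 160 CPM in B cells to 760 CPM in dividing CD8 T cells of pBIC10, and from 374 CPM in macrophages to 1089 CPM in non-dividing CD8 T cells of pBIC. H2-T23 and H2-Q4 were highest in non-dividing CD8 T cells of both mice, with H2-T23 at 479 CPM in pBIC10 and 765 CPM in pBIC, and H2-Q4 at 532 CPM in pBIC10 and 572 CPM in pBIC. H2-T22 peaked in the same class at 300 CPM in pBIC10 and 417 CPM in pBIC, although in pBIC10 the interval overlapped that of the 14 NK cells. H2-Q6 was highest in non-dividing CD8 T cells of pBIC10 (312 CPM, with dividing cells overlapping at 297 CPM) and in B cells of pBIC (424 CPM). H2-M3 was highest in macrophages of pBIC10 (81.7 CPM), while in pBIC non-dividing CD8 T cells and macrophages both stood at 97.7 CPM. Cd1d1 led in macrophages of both mice, at 27.8 CPM (25.6 to 30.1) in pBIC10 and 26.6 CPM (21.2 to 32.9) in pBIC. H2-Q10 led in neutrophils of both mice, at 197 CPM (182 to 213) in pBIC10 and 228 CPM (201 to 258) in pBIC.

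**Figure D1:**
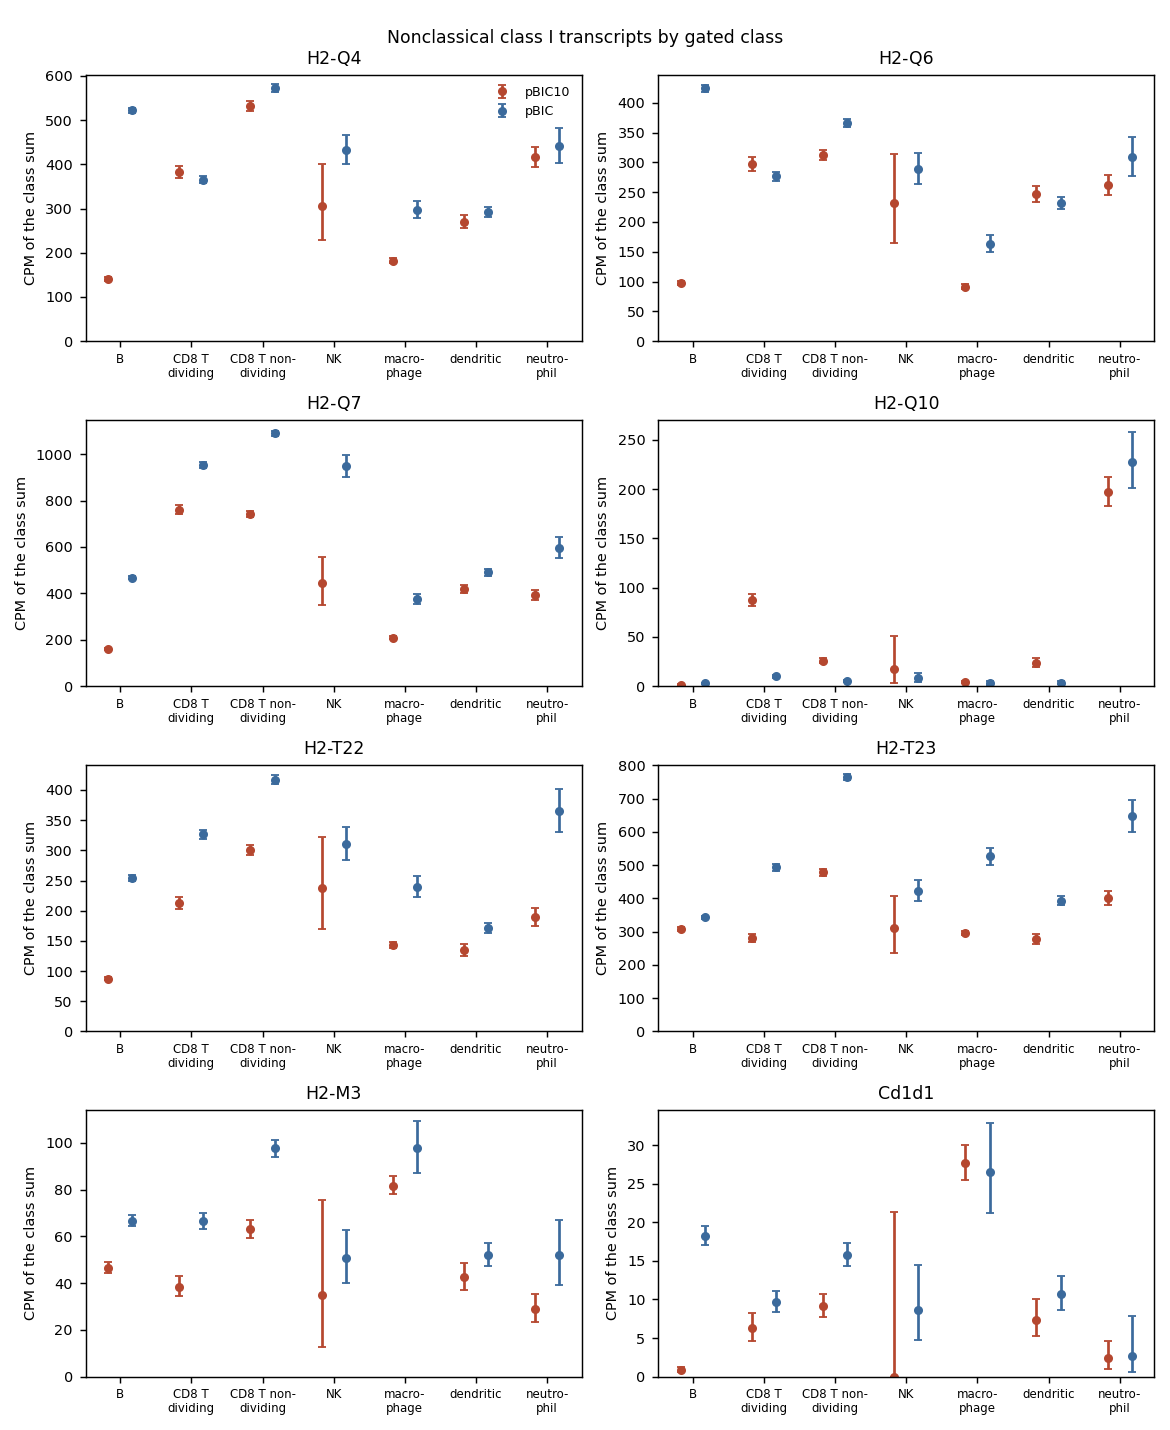
CPM of each of the 8 genes (y axis, from 0, a different scale in each panel) in the 7 gated classes (x axis), pBIC10 left of pBIC; points are class sums and bars are 95% Poisson counting intervals. The B-cell points of H2-Q4, H2-Q6, H2-Q7, H2-T22 and Cd1d1 lie far lower in pBIC10 than in pBIC, and H2-Q10 stands highest in neutrophils of both mice. The bars of the 14 pBIC10 NK cells are wide relative to their levels.

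B cells showed the widest gap between the mice for H2-Q4, H2-Q6, H2-Q7, H2-T22 and Cd1d1. The gap was widest in macrophages for H2-T23, in neutrophils for H2-M3 and in dividing CD8 T cells for H2-Q10. A gene was called higher or lower where its level differed at least 1.5-fold, the exact conditional binomial interval of the ratio excluded no difference, and both classes together had at least 20 UMIs. In B cells 6 of the 8 members were lower in pBIC10 and 0 higher, against a background in which 40.8% of the 13445 genes measured were called lower and 16% higher (56.8% either way). The median log2 ratio of pBIC10 to pBIC was -1.54 over the members and -0.42 over all genes measured.

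Cd1d1 differed most. It had 30 UMIs (0.867 CPM, 0.585 to 1.24) in pBIC10 B cells, against 854 UMIs (18.2 CPM, 17.0 to 19.5) in pBIC B cells, a log2 ratio of -4.39 (-4.97 to -3.87). It was -3.07 when cells that met more than 1 gate were kept and -3.06 when each cell had equal weight. A UMI was seen in 1.44% of pBIC10 B cells and 16.3% of pBIC B cells, and after thinning every cell to 2000 UMIs in 0.465% and 2.90%. The pBIC10 share was not far from the 0.826% of neutrophils of that mouse, the class with the lowest share apart from the 14 NK cells, in which it was at 0. The median cell had 12386 UMIs among pBIC10 B cells and 2660 among pBIC10 neutrophils.

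Among the Q genes, H2-Q6 stood at 98.2 CPM in pBIC10 B cells and 424 CPM in pBIC B cells (log2 ratio -2.11, -2.16 to -2.06). H2-Q4, another Q-region class I gene, stood at 141 CPM in pBIC10 and 522 CPM in pBIC (-1.89, -1.94 to -1.85). H2-Q7 stood at 160 CPM in pBIC10 and 467 CPM in pBIC (-1.55, -1.59 to -1.51). All 3 were lower in pBIC10, and the thinned shares of cells lay in the same order, such as 23.1% in pBIC10 and 59.5% in pBIC for H2-Q4.

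H2-T22 was lower as well, with 87.5 CPM in pBIC10 B cells and 254 CPM in pBIC B cells (-1.54, -1.60 to -1.48). H2-T23, the Qa-1 gene, did not pass the 1.5-fold limit, at 308 CPM in pBIC10 and 343 CPM in pBIC (-0.16, -0.19 to -0.12). H2-M3 did not pass either, at 46.6 CPM in pBIC10 and 66.6 CPM in pBIC (-0.51, -0.60 to -0.43). Centred on the median of all genes, H2-T23 was at 0.26, so its direction depends on the scaling. H2-Q10 rested on 56 UMIs in pBIC10 and 131 in pBIC (1.62 and 2.79 CPM), its call was lost under 3 alternatives, and its thinned share of cells went the other way, 0.672% in pBIC10 and 0.488% in pBIC.

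Most B cells of each mouse carried 1 immunoglobulin light chain segment, Igkv3-1 in 1661 pBIC10 cells and Igkv8-30 in 2375 pBIC cells, called lymphoma-clone cells here. Between these alone, 6 of the 8 members were again lower in pBIC10 (background 40.2% lower, 16.6% higher and 56.8% either way), with H2-Q4 at -2.03, H2-Q6 at -2.28, H2-Q7 at -1.64, H2-T22 at -1.65, Cd1d1 at -4.94, H2-Q10 at -0.91, H2-T23 at -0.16 and H2-M3 at -0.54. In pBIC10 the B gate also held Cd8b1, the CD8 beta chain, at 367 CPM, against 21.0 CPM in pBIC. Within pBIC10, Cd8b1 went with the clone, at 380 CPM in the lymphoma-clone cells and 19.8 CPM in B cells with other light chains. The part of RNA from other cells in the result was not tested.

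A comparison within the pBIC10 library does not set one mouse against the other, though the labels do not say whether tumour and host share a haplotype. pBIC10 had 129 B cells with other light chains, and pBIC only 15, too few to give values. Their identity was checked with genes the split did not use. Onecut2 stood at 102 CPM in the pBIC10 lymphoma clone and 6.04 CPM in the other B cells, Cd8b1 at 380 and 19.8 CPM, and Ighm at 4.19 and 3093 CPM. Igha did not separate the sets, at 846 CPM in the clone and 1049 CPM in the other B cells.

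In pBIC10, 5 of the 8 members were lower in the lymphoma clone than in the other B cells and 0 were higher, where 15.4% of the 11555 genes measured were lower and 14.1% higher (29.5% either way). H2-Q4 stood at 129 CPM (125 to 133) in the clone and 366 CPM (332 to 403) in the other B cells, a log2 ratio of -1.51 (-1.65 to -1.36). H2-Q6 stood at 88.1 CPM in the clone and 296 CPM in the others (-1.75, -1.91 to -1.58), and H2-Q7 at 147 and 456 CPM (-1.64, -1.77 to -1.51). H2-T22 stood at 80.8 CPM in the clone and 233 CPM in the others (-1.53, -1.71 to -1.34). Cd1d1 rested on 20 UMIs in the clone and 5 in the others (0.616 and 4.31 CPM), with a log2 ratio of -2.81 (-4.26 to -1.04).

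H2-T23, at 304 CPM in the clone and 391 CPM in the other B cells (-0.36), and H2-M3, at 45.7 and 66.4 CPM (-0.54), again missed the limit. The 5 genes low in the clone within pBIC10 were also low in pBIC10 against pBIC, a pair of comparisons that share the pBIC10 clone. The lymphoma-clone cells had a median of 15896 UMIs and the other B cells 5378.

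**Figure D2:**
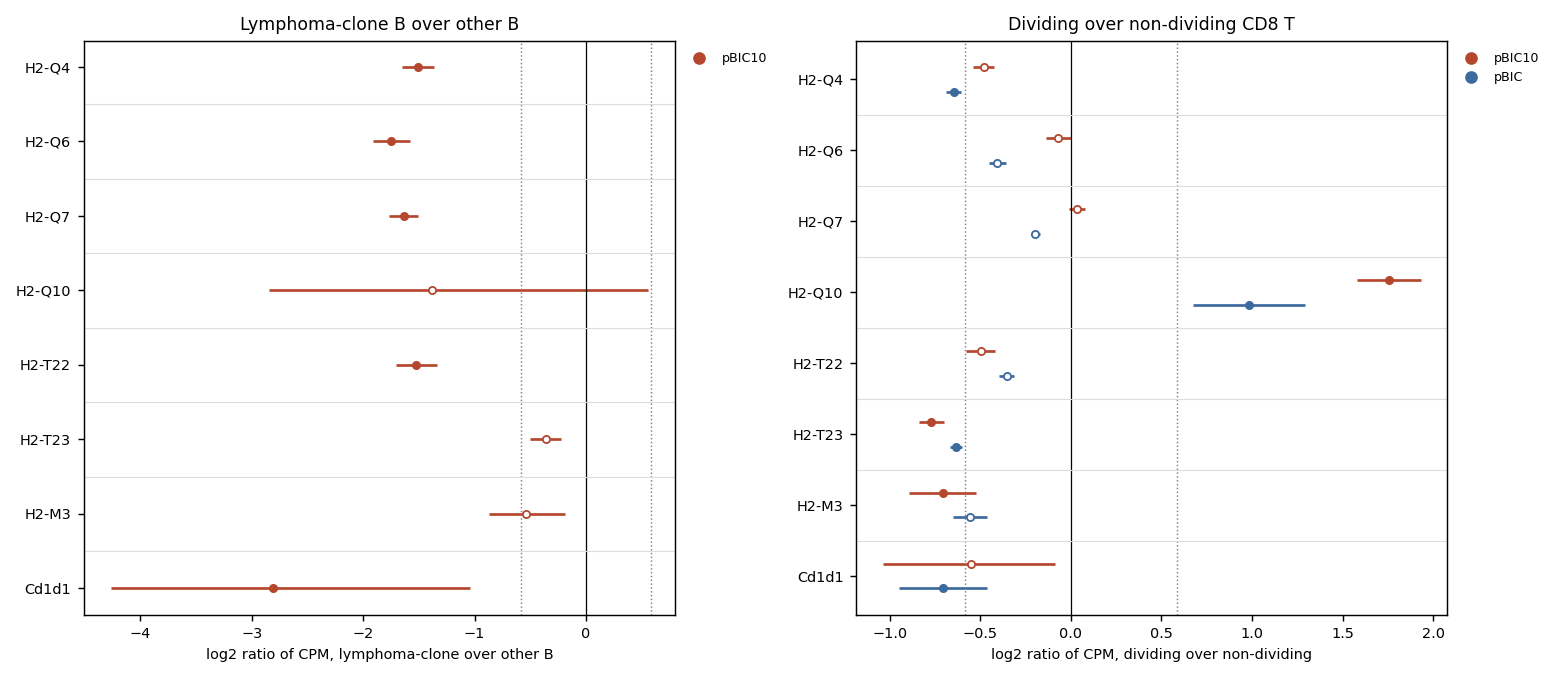
Log2 ratios of CPM within a mouse (x axis) for the 8 genes (y axis), with 95% counting intervals: left, lymphoma-clone over other B cells in pBIC10; right, dividing over non-dividing CD8 T cells in pBIC10 and pBIC. Filled points were called, open points were not, and dotted lines mark 1.5-fold. On the left H2-Q4, H2-Q6, H2-Q7, H2-T22 and Cd1d1 are filled on the low side, and on the right H2-Q10 alone is filled on the high side in both mice.

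CD8 T cells differed from B cells in which members were called. In non-dividing cells 1 member was higher in pBIC10 and 3 lower, where 13.9% of the 12639 genes measured were higher and 20.2% lower (34.1% either way). H2-T23 stood at 479 CPM in pBIC10 and 765 CPM in pBIC (log2 ratio -0.67, -0.71 to -0.64), H2-M3 at 62.9 CPM in pBIC10 and 97.7 CPM in pBIC (-0.63), and Cd1d1 at 9.16 CPM in pBIC10 and 15.8 CPM in pBIC (-0.78). In dividing cells 1 was higher and 4 lower, where 12.3% of the 11816 genes measured were higher and 21.8% lower (34.1% either way). The lower ones were H2-T23 at 281 CPM in pBIC10 and 493 CPM in pBIC (-0.81, -0.88 to -0.75), H2-M3 (-0.79), H2-T22 (-0.62) and Cd1d1 (-0.63). Centred on the median of all genes, the calls of H2-T23 (-0.52) and H2-M3 (-0.48) in non-dividing cells and of H2-T22 (-0.44) and Cd1d1 (-0.45) in dividing cells were lost.

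The H2-Q4 and H2-Q6 levels differed little between the mice here. H2-Q4 stood at 382 CPM in pBIC10 and 365 CPM in pBIC in dividing cells (0.06, 0.00 to 0.12), and H2-Q6 at 297 and 277 CPM (0.10, 0.04 to 0.17). H2-Q7 stood at 760 CPM in pBIC10 and 951 CPM in pBIC in dividing cells (-0.32, -0.37 to -0.28). In non-dividing cells H2-Q4 was at -0.10 and H2-Q6 at -0.23. H2-Q7 differed more there, at 743 CPM in pBIC10 and 1089 CPM in pBIC (-0.55, -0.58 to -0.52), and did not pass the 1.5-fold limit. Reads were thus assigned to these Q genes in T cells of both mice. Over the classes measured, the log2 ratio of H2-Q6 ran from -2.11 in B cells to 0.10 in dividing CD8 T cells, and that of H2-T23 from -0.83 in macrophages to -0.16 in B cells.

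H2-Q10 stood at 87.3 CPM (81.0 to 94.0; 712 UMIs) in dividing CD8 T cells of pBIC10, against 10.0 CPM (8.70 to 11.4; 211 UMIs) in those of pBIC, a log2 ratio of 3.13 (2.90 to 3.35). In non-dividing cells it stood at 25.9 CPM (23.5 to 28.4) in pBIC10 and 5.06 CPM (4.28 to 5.95) in pBIC, a log2 ratio of 2.35 (2.08 to 2.63). A UMI was seen in 49.1% of dividing cells of pBIC10 and 11.03% of those of pBIC, and in 10.8% and 1.61% after thinning to 2000 UMIs. B cells, a class with little of this transcript, gave a thinned share of 0.672% in pBIC10 and 0.488% in pBIC. In dividing pBIC10 cells 55 of 426 had 5 or more H2-Q10 UMIs and the highest had 19, against 4 of 1305 cells and a highest count of 6 in pBIC.

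RNA of neutrophils, where H2-Q10 was most abundant, was also present at a higher level in CD8 T cells of pBIC10. S100a8 and S100a9 summed to 472 CPM in dividing cells of pBIC10 and 21.6 CPM in those of pBIC. In the gated neutrophils of pBIC10 these 2 genes summed to 115326 CPM beside 197 CPM of H2-Q10. The part of neutrophil RNA in the H2-Q10 values of T cells was not tested. Class II RNA was higher as well, with H2-Aa at 222 CPM in dividing cells of pBIC10 and 30.1 CPM in those of pBIC, and its part in the result was not tested.

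Dividing cells had more H2-Q10 than non-dividing cells in both mice, with a log2 ratio of 1.75 (1.58 to 1.93) in pBIC10 and 0.98 (0.67 to 1.30) in pBIC. H2-T23 was lower in dividing cells of both, at -0.77 in pBIC10 and -0.63 in pBIC. In pBIC10, 1 member was higher and 2 lower in dividing cells (H2-T23 and H2-M3), where 15.1% of the 11932 genes measured were higher and 14% lower (29.1% either way). In pBIC, 1 was higher and 3 lower (H2-Q4 at -0.65, H2-T23 and Cd1d1 at -0.71), where 16.5% of the 12427 genes measured were higher and 16.2% lower (32.7% either way). When each cell was given equal weight, H2-T23 missed the limit in both mice (-0.52 in pBIC10 and -0.38 in pBIC), as did H2-Q4 (-0.44) and Cd1d1 (-0.47) in pBIC, so that none of the lower calls in pBIC held.

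Within CD8 T cells H2-Q10 was set beside Gzmc, Tdh and Utf1, a granzyme gene and 2 genes of other roles that were chosen after their values were seen. Dividing pBIC10 cells with 3 or more UMIs of these had 139 CPM of H2-Q10 (126 to 153; 99 cells), those with 1 or 2 had 82.2 CPM (90 cells), and those with 0 had 40.6 CPM (34.0 to 48.2; 237 cells). Cells with 0 in pBIC had 9.48 CPM (8.17 to 10.95; 1246 cells), which lies below the pBIC10 cells without these transcripts. The 3 pBIC10 sets also differed in depth, with medians of 31426, 20186 and 12387 UMIs per cell. Non-dividing pBIC10 cells gave 58.2, 40.0 and 17.0 CPM in the same order of sets. The transcript was spread over clones, with H2-Q10 UMIs in 349 of 1169 TCR clonotypes of pBIC10 and 183 of 1394 of pBIC. No clonotype gave more than 4.01% of the H2-Q10 UMIs of pBIC10 or 6.41% of those of pBIC. Among clonotypes of at least 20 cells, it ran from 0 to 109 CPM (median 25.7; 12 clonotypes) in pBIC10 and from 0 to 23.4 CPM (median 5.95; 49 clonotypes) in pBIC.

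**Figure D3:**
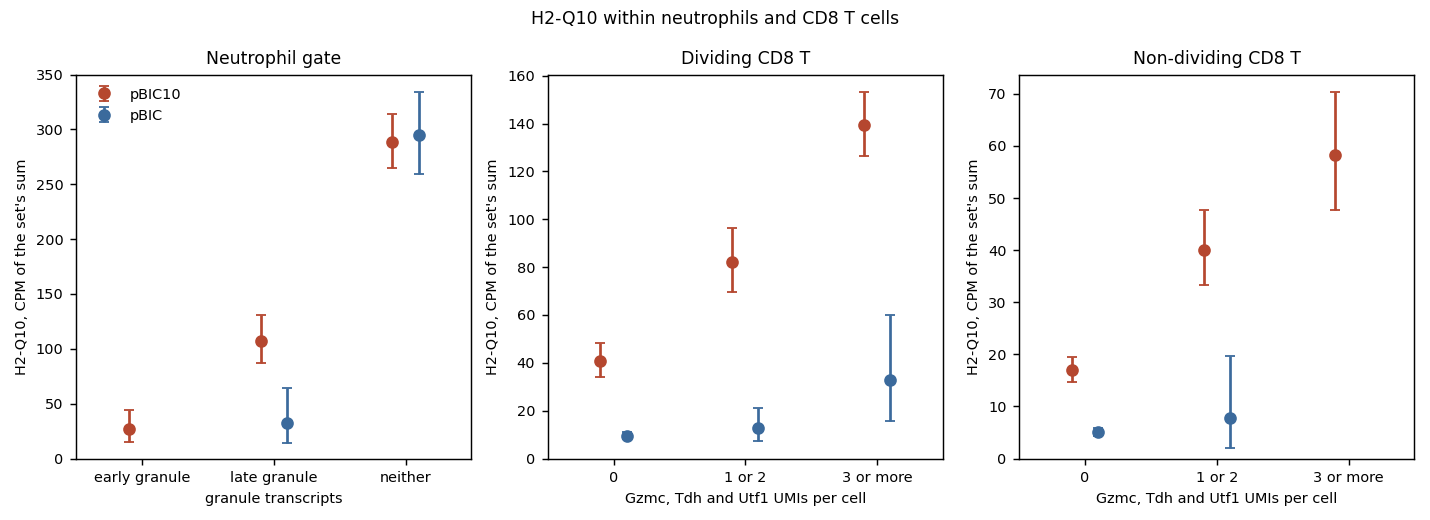
H2-Q10 level (y axis, CPM of the set's summed UMIs, from 0) by granule transcripts in neutrophils (left) and by UMIs of Gzmc, Tdh and Utf1 in dividing (middle) and non-dividing (right) CD8 T cells, pBIC10 left of pBIC; bars are 95% Poisson counting intervals and sets under 5 cells are not drawn. Neutrophils with neither kind of granule transcript are highest in both mice, at 289 CPM in pBIC10 and 295 CPM in pBIC, and each pBIC10 T-cell set lies above the pBIC set drawn beside it.

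Neutrophils carried H2-Q10 at levels that did not pass the limit between the mice (log2 ratio -0.21, -0.42 to 0.00), with a UMI in 40.6% of pBIC10 and 46.9% of pBIC neutrophils. The level also differed between neutrophils split by granule transcripts, a split chosen after values were seen. Those with at least 2 UMIs of the early granule genes Elane, Mpo, Prtn3 and Ctsg had 27.0 CPM in pBIC10 (38 cells), and pBIC had only 2 such cells. Neutrophils with at least 10 UMIs of the later granule genes Camp and Ngp had 107 CPM (87.0 to 131) in pBIC10 and 32.7 CPM (14.1 to 64.5) in pBIC. The pBIC value rests on 8 UMIs in 28 cells. Those with neither had 289 CPM (265 to 314) in pBIC10 and 295 CPM (259 to 334) in pBIC. The sets also differed in depth, with pBIC10 medians of 12200.5 (early), 4017 (later) and 2409 (neither) UMIs per cell. In pBIC the medians were 7017 (later) and 3232.5 (neither), and the part of depth in these levels was not tested.

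In neutrophils 4 of the 7 members measured were lower in pBIC10 and 0 higher, where 12.2% of the 9001 genes measured were lower and 9.72% higher (21.9% either way). H2-T22 stood at 189 CPM in pBIC10 and 364 CPM in pBIC (-0.95, -1.13 to -0.76), H2-T23 at 402 and 647 CPM (-0.69, -0.82 to -0.56), H2-M3 at 28.9 and 51.8 CPM (-0.84), and H2-Q7 at 393 and 595 CPM (-0.60). With gate thresholds doubled 1 of the 7, H2-T22, was called, and H2-T23 (-0.46) was not. H2-T23 was also not called when each cell had equal weight (-0.53). H2-Q4, at 416 CPM in pBIC10 and 441 CPM in pBIC, did not pass. Cd3e in this gate stood at 41.2 CPM in pBIC10 and 292 CPM in pBIC. Without cells that had a TCR beta chain or any Cd3e UMI, H2-T22 (184 CPM in pBIC10 and 362 CPM in pBIC) and H2-T23 (395 and 632 CPM) were still called, while H2-Q7 (-0.39) and H2-M3 (-0.57) were not.

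Macrophages had 5 of the 8 members lower in pBIC10 and 0 higher, where 27.3% of the 11674 genes measured were lower and 6.49% higher (33.8% either way). H2-Q4 stood at 181 CPM in pBIC10 and 297 CPM in pBIC (-0.71), H2-Q6 at 91.1 and 163 CPM (-0.84), H2-Q7 at 209 and 374 CPM (-0.84), H2-T22 at 143 and 239 CPM (-0.74), and H2-T23 at 296 and 526 CPM (-0.83). The 5 ratios lay close together, and all 5 calls were lost when ratios were centred on the median of all genes, which was -0.26. Cd1d1 (0.06, -0.27 to 0.41) and H2-M3 (-0.26) did not pass. Marker sums of other cells differed in this gate, with the neutrophil list at 4905 CPM in pBIC10 and 413 CPM in pBIC and the erythroid list at 76.0 CPM in pBIC10 and 787 CPM in pBIC, and their part in the result was not tested. Cd1d1, far lower in B cells of pBIC10, stood at a similar level in macrophages of the 2 mice within its counting interval.

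Dendritic cells had only H2-Q10 called, at 24.01 CPM (20.0 to 28.6) in pBIC10 and 3.47 CPM (2.34 to 4.96) in pBIC, where 7.83% of the 11547 genes measured were higher and 20.4% lower (28.2% either way). When cells that met more than 1 gate were kept, H2-Q4, H2-Q6, H2-Q7, H2-T22 and Cd1d1 were called lower too. Without the 84 pBIC10 and 146 pBIC cells that had a TCR beta chain or a Cd3e UMI, H2-Q10 stood at 2.65 CPM (10 UMIs) in pBIC10 and 1.45 CPM (9 UMIs) in pBIC, and no member of the 7 measured was called. The other 7 members ran from -0.53 for Cd1d1 to 0.09 for H2-Q6 in log2 ratio. In the 14 pBIC10 NK cells, 6 members could be measured, and only H2-Q7 was called, at 445 CPM (351 to 556) in pBIC10 and 948 CPM (901 to 997) in pBIC, where 8.21% of the 7446 genes measured were lower and 4.79% higher (13% either way). Those pBIC10 NK cells also carried H2-Aa at 1925 CPM, against 49.4 CPM in pBIC.

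**Figure D4:**
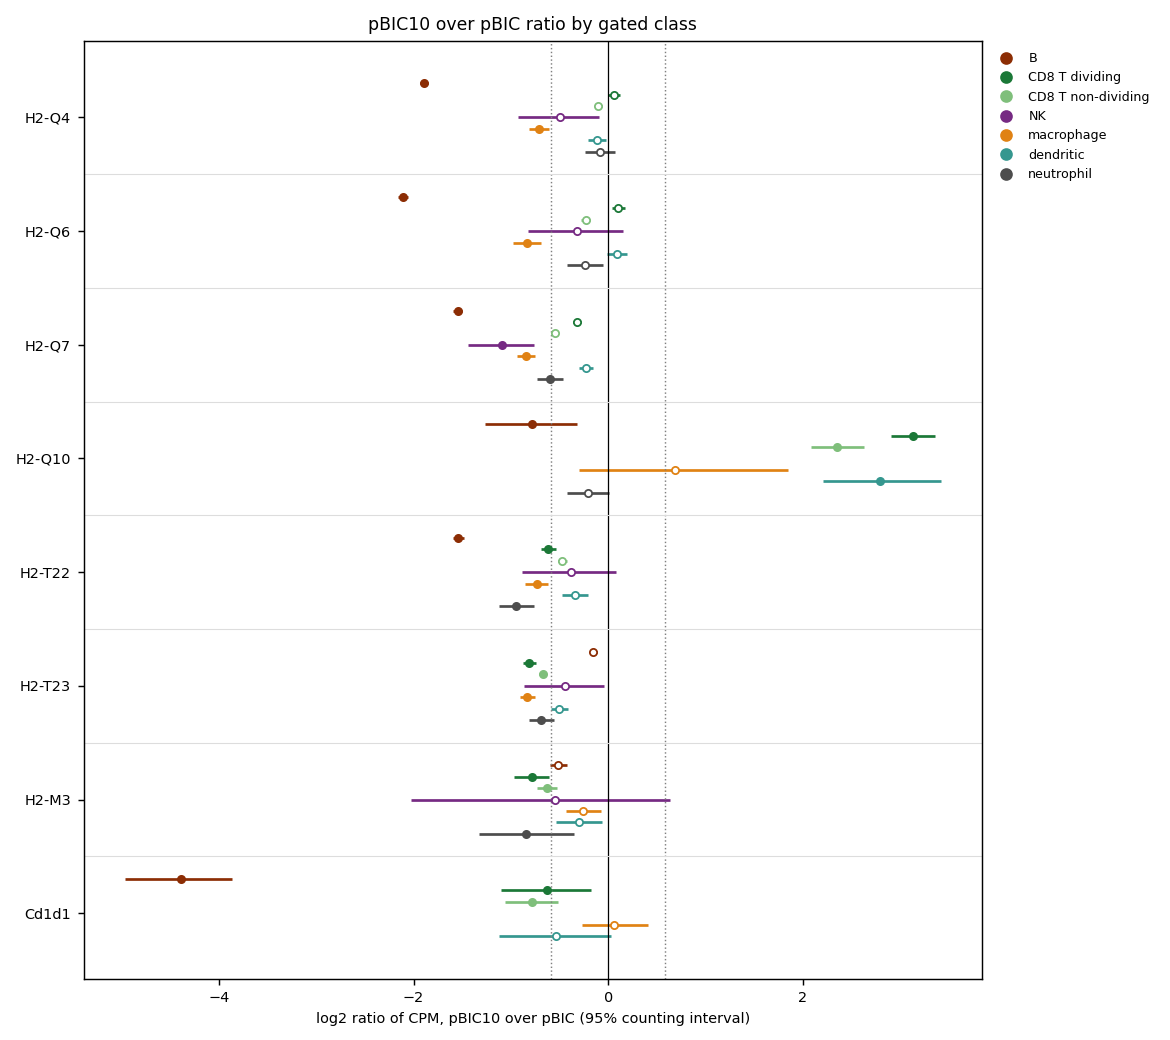
Log2 ratio of pBIC10 to pBIC (x axis) for the 8 genes (y axis) in the 7 gated classes (colours), with 95% counting intervals; filled points were called, dotted lines mark 1.5-fold, and genes under 20 UMIs in a class are not drawn. B cells lie far left for H2-Q4, H2-Q6, H2-Q7, H2-T22 and Cd1d1 but at -0.16 for H2-T23, and H2-Q10 alone has points beyond 2 on the right, in both CD8 T classes and in the dendritic gate.

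Of 14 classical class I and assembly genes, 6 were lower in B cells of pBIC10 and 0 higher, with a median log2 ratio of -0.31. That is near the background, in which 40.8% of all genes were lower and the median was -0.42. The classical genes H2-K1 (1223 CPM in pBIC10 and 2665 CPM in pBIC, -1.12) and H2-D1 (1295 and 2401 CPM, -0.89) were lower, as were B2m, the shared light chain (-0.68), the peptide loading genes Tapbp (-0.93) and Tapbpl (-1.92), and the immunoproteasome gene Psmb10 (-1.07). Psmb8, another immunoproteasome subunit, stood at 1159 CPM in pBIC10 and 832 CPM in pBIC (0.48) and did not pass. Within pBIC10, H2-K1 (-0.87) and H2-D1 (-0.74) were lower in the lymphoma clone than in the other B cells, and Psmb8 (0.70) and Pdia3 (0.67) were higher. In the other classes 0 to 2 of these 14 were called, all of them lower in pBIC10, and 0 in dendritic cells. Over all genes the share called lower in these classes ran from 8.21% in NK cells to 27.3% in macrophages.

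Regulators of class I genes made a list of 16. Nlrc5, their transactivator, stood at 25.7 CPM in pBIC10 and 57.4 CPM in pBIC in B cells (-1.16), and was also lower in non-dividing (-0.59) and dividing (-0.69) CD8 T cells, NK cells (-1.53) and macrophages (-1.04). The median over all genes was -0.16 in non-dividing and -0.17 in dividing CD8 T cells, and the NK value rests on 14 pBIC10 cells. In B cells of pBIC10, 5 of the 16 were lower and 1 higher, a lower share than the 40.8% over all genes, with a list median of -0.38 beside -0.42. The interferon-response factor gene Irf1 stood at 61.1 CPM in pBIC10 and 230 CPM in pBIC (-1.91), Rfx5, a partner of Nlrc5, at 10.9 and 26.4 CPM (-1.27), and Irf8, a B-cell and myeloid factor, at 707 and 151 CPM (2.23). In macrophages 10 of the 16 were lower in pBIC10 and 0 higher, where 27.3% of all genes were lower and 6.49% higher, among them Irf1, at 161 CPM in pBIC10 and 354 CPM in pBIC (-1.14). Within pBIC10, 6 of the 16 were lower in the lymphoma clone than in the other B cells and 1 was higher. Over all genes 15.4% were lower and 14.1% higher in that comparison. The interferon receptor gene Ifnar2 (-1.22), Irf9 (-1.29) and Irf1 (-0.93) were lower in the clone, as were Nlrc5 (-0.69) and Rfx5 (-1.06). Irf8 was higher (2.08).

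Of 13 other class I-like genes, 7 could be measured in B cells, with 3 higher and 3 lower in pBIC10, where 16% of all genes were higher and 40.8% lower. H2-T24 was lower in pBIC10 in B cells (-1.22), both CD8 T classes (-2.03 non-dividing, -1.67 dividing), macrophages (-1.98), dendritic cells (-1.07) and neutrophils (-1.16). H2-M5 had 2.08 CPM in pBIC10 B cells and was at 0 in pBIC B cells, and in pBIC10 it had 67 UMIs in the clone (2.06 CPM) and 3 UMIs in the other B cells (2.59 CPM, 0.533 to 7.56). H2-M2 was higher in pBIC10 in B cells (2.17 CPM, against 0.213 CPM in pBIC, 3.35) and in non-dividing CD8 T cells (3.81 CPM, against 0.616 CPM, 2.63). In macrophages, where it was most abundant, it stood at 113 CPM in pBIC10 and 95.7 CPM in pBIC (0.24) and did not pass. C1qa, a macrophage marker, stood at 7.75 CPM in B cells of pBIC10 and 3.48 CPM in those of pBIC. In non-dividing CD8 T cells C1qa stood at 12.5 CPM in pBIC10 and 5.44 CPM in pBIC. The part of macrophage RNA in the H2-M2 values of B and T cells was not tested. Mr1, which presents vitamin B metabolites, was lower in pBIC10 B cells (2.31 CPM, against 4.54 CPM in pBIC).

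Of 11 receptor genes, 5 of the 10 measured were lower in non-dividing CD8 T cells of pBIC10, 4 of 10 in dividing ones and 4 of 9 in NK cells, with 0 higher. Over all genes 20.2%, 21.8% and 8.21% were lower in these classes. The list holds Cd8a and Cd8b1, which also define the CD8 T gate, and Cd8a (-0.59) is 1 of the 4 in dividing cells. Klrc1, the NKG2A chain that reads Qa-1, stood at 71.6 CPM in pBIC10 and 121 CPM in pBIC in non-dividing CD8 T cells (-0.76), and at 46.5 and 102 CPM in dividing ones (-1.13). Its partner Klrd1 did not pass in either (-0.22 and -0.45). Cd160, a receptor for several class I molecules, stood at 58.1 CPM in pBIC10 and 151 CPM in pBIC in non-dividing CD8 T cells (-1.38). Among 8 genes of CD1d loading, 7 could be measured in B cells, with 2 lower in pBIC10 and 1 higher, shares that are not above the 40.8% and 16% over all genes. Psap, the saposin precursor, was lower in B cells of pBIC10 (303 CPM, against 727 CPM in pBIC, -1.26), and Ap3d1, an adaptor subunit, likewise (-1.25). Of 5 NKG2D ligand genes, 3 could be measured in B cells, with 2 lower in pBIC10 and 1 higher, where 56.8% of all genes were called either way.

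Natural killer T cells, which recognise CD1d, carry an invariant alpha chain that joins TRAV11 with TRAJ18. This chain was found in 1 of 3378 pBIC10 cells with an alpha chain (0.0296%, 0.000749% to 0.165%, Clopper-Pearson) and in 24 of 7390 pBIC cells (0.325%, 0.208% to 0.483%). The 24 cells held 2 distinct CDR3 sequences, 19 had a TRBV13, TRBV29 or TRBV1 beta chain, and 8 had a UMI of Zbtb16, the transcription factor of natural killer T cells. A UMI of Cd4 was seen in 2 of the 24 and a UMI of Cd8a or Cd8b1 in 5. How common these beta chains and transcripts were in other T cells was not tested. The chain of MR1-restricted cells, TRAV1 with TRAJ33, was seen in 0 cells of either mouse, which, with 3 counts as the limit that a count of 0 allows, leaves room for a share of up to 0.0888% in pBIC10 and 0.0406% in pBIC.

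The genes most like each member were ranked by Pearson's r of log2(CPM + 10) over 14 points, 7 classes in each of 2 mice, among 7643 genes. Points from 1 mouse share a library, so the values are descriptions. H2-Q4 and H2-Q6 were each other's closest match (r = 0.93), followed by Ankrd12 for both. H2-Q7 was most like Ets1 (0.96), S1pr4 (0.95) and Nkg7 (0.95), and H2-T22 like Heca (0.94), Itpkb (0.94) and Utrn (0.93), with H2-K1 at 0.93. H2-T23 was most like Kmt2e (0.93), H2-M3 like Arl5a (0.94), and Cd1d1 like Arl5c (0.94). H2-Q10 was most like Plk2 (0.90), the granule gene Ltf (0.86) and Dhrs7 (0.85). Among the members, H2-M3 and Cd1d1 had an r of 0.84, and H2-Q10 had its highest with H2-Q4, at 0.33.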

How the data were processed

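Each gene expression matrix deposited by the authors gives raw UMI counts for every gene and barcode, from 5′ libraries. Per the submitters' processing notes Cell Ranger 3.0.1 and GRCm39 were used, while the file headers name cellranger 5.0.1, and this was not resolved. The deposited contig tables list TCR chains with their counts. H2-Ea is not among the features.

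Cells needed 200 genes and less than 10% of UMIs from mitochondria. Scrublet (scanpy 1.11.5, expected rate 0.08) set no usable threshold of its own in pBIC, so a score over 0.31 marked doublets in both libraries, 367 (2.50%) in pBIC10 and 440 (2.46%) in pBIC, and these were removed. UMIs were summed per class and given as CPM, with exact Poisson, conditional binomial or Clopper-Pearson intervals at 95% (Python 3.11.15, scipy 1.17.1, numpy 2.4.6, pandas 2.3.3). A count of 0 took a floor of 3 counts. The call rule was run on simulated counts that held Poisson counting error only. That run cannot show how the rule performs with differences between mice or libraries. Alternatives were other gates, doublets kept, per-cell CPM, another denominator, centring, a stricter mitochondrial limit, and, chosen after seeing the data, cells without T-cell RNA and lymphoma-clone cells alone.

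All 8 members are reported. From each other list the rule named up to 3 genes per direction and comparison, with at least 50 UMIs and the interval bound farthest from no difference, besides H2-K1, H2-D1 and B2m. Genes compared with the members for likeness needed 30 CPM in 1 class. The members did not, and Cd1d1 reached 27.8 CPM at most. Named outside the rule, with values known, were Tapbp in B cells, Nlrc5 in CD8 T cells, Klrc1 in non-dividing CD8 T cells, Klrd1 between mice, and Nlrc5, Rfx5 and H2-M5 within pBIC10 B cells. Members, gates and lists were chosen with earlier results of these data known. Promoter sequences are RefSeq's. Some genes of the lists are not reported here.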

Additional observations from a re-analysis of the deposited data

Results flagged for a closer look

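H2-Q10 went in opposite directions in different classes. Its log2 ratio of pBIC10 to pBIC was 3.13 in dividing CD8 T cells, 2.35 in non-dividing CD8 T cells and 2.79 in the dendritic gate, but -0.79 in B cells. The difference between the classes was not tested, since each genotype has 1 mouse. The B-cell value rests on 56 UMIs in pBIC10 and 131 in pBIC and was -0.05 when cells in more than 1 gate were kept. The dendritic value goes with cells that carried T-cell RNA, without which H2-Q10 had 10 UMIs in pBIC10 and 9 in pBIC.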

How the results depend on the processing

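No paired analysis was possible because each genotype has 1 mouse and 1 gene expression library, and for the same reason no replicate could be left out. Over 9 alternatives, 575 member values were recomputed. The sign held in 558 and the call in 527, with 30 calls lost, 18 gained and 0 reversed calls. Counts of called members changed by more than 1.5 times as follows, against main counts of 1 for NK cells, 1 for dendritic cells, 4 for neutrophils, 5 for macrophages, 4 for non-dividing and 5 for dividing CD8 T cells, 3 for dividing over non-dividing cells in pBIC10 and 4 in pBIC. With cells kept in every gate they met, there were 3 in NK cells, 6 in dendritic cells (5 of them lower in pBIC10) and 5 for dividing over non-dividing cells in pBIC10. With gate thresholds doubled, there were 3 in NK cells, 2 in dendritic cells and 1 in neutrophils. With the mean of per-cell CPM, there were 3 in dividing CD8 T cells, 3 in NK cells, 2 in dendritic cells, 2 in neutrophils and 1 for dividing over non-dividing cells in pBIC. Centred on the median of all genes, there were 2 in non-dividing CD8 T cells, 3 in dividing CD8 T cells and 0 in macrophages. Without cells carrying T-cell RNA, an alternative chosen after seeing the data, there were 0 in dendritic cells and 2 in neutrophils. The cause of these changes was not tested. In B cells the calls of H2-Q4, H2-Q6, H2-Q7, H2-T22 and Cd1d1 held under every alternative run, and that of H2-Q10 was lost with cells kept in every gate (-0.05), with per-cell CPM (-0.02) and when centred (-0.37). With 14 pBIC10 NK cells, only large differences could be seen there.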
